A study of Mus musculus with 4 samples.

Results

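Chromatin remodelers are multi-subunit machines that use ATP to slide, evict or exchange nucleosomes, and each is built around an ATPase of the SNF2 family that is joined by partners which target or tune it. The SWI/SNF (BAF and PBAF) complexes open enhancers and promoters, the ISWI complexes space nucleosomes, the NuRD complexes couple remodeling to histone deacetylation, and INO80 moves nucleosomes and histone variants at promoters and replication forks. In developing T-cells, SWI/SNF and NuRD act at the loci that are opened and closed as thymocytes mature. Here the genes of these subunits were taken by their symbols: all Smarc and Actl6 genes, Arid1 to Arid5, Chd1 to Chd9, the Ino80 genes, Baz1 and Baz2, Mta1 to Mta3, Mbd2, Mbd3, Pbrm1 and Dpf1 to Dpf3. The rule found 54 of the 24391 genes in the count table. It used no measured value. Among them, 52 belong to 12 role groups, and the remaining pair are Smarca5-ps, a processed copy of Smarca5, and Ino80dos, a noncoding transcript named for the strand opposite Ino80d. Of these 52, 7 are ARID genes (Arid3a to Arid5b) that share a DNA-binding domain with SWI/SNF subunits but are not known as parts of a remodeler. These 7, the copy and the noncoding transcript are counted with the subunits below because the symbol rule takes them.

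The RNA-Seq series compares Beko cells, a line of mouse leukemic pre-T-cells whose Notch pathway is always on, in the presence of a γ-secretase inhibitor and after its removal. The GSI group (2 libraries) was kept for 48 h in DAPT, a compound that blocks the cleavage of Notch1 into its active form, and fresh inhibitor was given at 24 h. The washout group (2 libraries) received the same 48 h of DAPT, and the cells were then collected, washed and cultured for 24 h without it. The labels give the dose as 10 mg/ml, whereas the methods give the same figure in μg/ml. Both groups had therefore been inhibited, and the washed cells also spent 24 h longer in culture and were washed once more, so the return of Notch signaling, the added time and the washing cannot be told apart. All libraries come from a single cell line. Nothing states that the replicates were separate cultures, so p-values measure the spread between these libraries only.

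Total counts were between 13716199 and 36364200 per library, and replicate 1 was the deeper library in both groups. The 10 T progenitor markers summed to between 5616 and 6140 CPM (count-per-million units, scaled by the library total and the TMM factor), while the 5 B cell markers stayed under 1 CPM in sum. Single T progenitor markers moved, with 4 lower after washout (Thy1, Tcf7, Bcl11b and Cd2), 2 higher (Ptcra and Cd3g) and 4 not called. The myeloid and mast cell list summed to 324 and 205 CPM with GSI and to 51.2 and 35.4 CPM after washout, through Cpa3, Kit and Itgam, whereas Elane, Lyz2 and Fcer1a had 0 counts in every library. In bulk RNA, fewer cells of a type and less RNA per cell cannot be told apart. All 8 Notch target genes of the marker list were higher after washout, with a median log2 fold change of 2.37, and so were all 10 S phase genes, with a median of 1.59. The part of the myeloid genes and of the S phase genes in the results below was not tested.

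Promoters of 5 of the 54 genes are printed here because they belong to genes that rose or fell after washout and overlap no annotated exon. Actl6a and Smarcc1 rose, and Arid5a, Baz2a and Chd9 fell. Each line holds the 250 bases before the RefSeq transcription start, 5′ to 3′ on the gene's strand, placed on NCBIM37 (the mm9 assembly of the files) by exact match, all on the plus strand. Capitals mark TGGGAA or its reverse complement TTCCCA, the core letters that RBPJ, the DNA-binding partner of Notch, is known to read. The palindrome CACGTG (E-box) was searched as well and is absent from these stretches.
Actl6a, chr3:32607218-32607467: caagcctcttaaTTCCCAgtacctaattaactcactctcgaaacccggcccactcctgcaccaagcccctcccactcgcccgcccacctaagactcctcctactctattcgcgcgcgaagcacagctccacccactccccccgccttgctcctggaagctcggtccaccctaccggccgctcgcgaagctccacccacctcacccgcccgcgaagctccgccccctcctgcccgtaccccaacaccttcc
Smarcc1, chr9:110034278-110034527: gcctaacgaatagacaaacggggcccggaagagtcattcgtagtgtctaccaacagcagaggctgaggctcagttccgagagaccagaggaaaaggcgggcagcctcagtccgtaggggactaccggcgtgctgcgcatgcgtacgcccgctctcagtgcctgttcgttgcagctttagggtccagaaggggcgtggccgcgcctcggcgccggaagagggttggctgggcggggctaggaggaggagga
Arid5a, chr1:36364328-36364577: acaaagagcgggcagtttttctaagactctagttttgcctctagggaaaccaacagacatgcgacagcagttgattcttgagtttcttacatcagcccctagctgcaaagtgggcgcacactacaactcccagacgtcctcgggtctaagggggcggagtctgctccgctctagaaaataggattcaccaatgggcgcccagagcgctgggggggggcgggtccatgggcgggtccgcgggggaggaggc
Baz2a, chr10:127529589-127529838: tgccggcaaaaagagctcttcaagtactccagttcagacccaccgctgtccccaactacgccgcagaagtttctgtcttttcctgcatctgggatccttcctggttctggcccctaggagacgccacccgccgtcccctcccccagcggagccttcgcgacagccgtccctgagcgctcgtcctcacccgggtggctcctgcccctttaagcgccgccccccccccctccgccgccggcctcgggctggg
Chd9, chr8:93352484-93352733: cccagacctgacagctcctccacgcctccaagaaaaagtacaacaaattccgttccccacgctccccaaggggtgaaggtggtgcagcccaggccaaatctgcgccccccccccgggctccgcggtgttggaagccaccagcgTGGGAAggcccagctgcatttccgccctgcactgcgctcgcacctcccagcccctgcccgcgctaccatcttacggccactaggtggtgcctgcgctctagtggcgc

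The match in Actl6a starts 238 bases before the start site and that in Chd9 107 bases before it. GC content was 64.8% in the Actl6a stretch, 63.6% in Smarcc1, 58.0% in Arid5a, 67.2% in Baz2a and 66.0% in Chd9, so these promoters are all GC-rich. Promoters were at hand for 40 of the 54 genes. Counting genes with a match in at least 1 of their promoters, TGGGAA was present on either strand in 1 of 11 genes that were higher after washout (Actl6a), in 2 of 8 that were lower (Arid4b and 1 of the 2 Chd9 promoters) and in 2 of 16 that were not called (Smarcal1 and Chd8), against 24.1% of all 27025 genes with a promoter of the same length. CACGTG was present in Ino80e and Pbrm1 only among the 40, against 6.86% of all genes. By single stretches, the shares were 21.6% and 6.02% of all 32851 promoters. A match describes letters and is not a binding site.

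Subunits that rose and subunits that fell were about as frequent as such genes are overall. Of the 54 genes, 49 passed the filter on low counts and were tested with edgeR's quasi-likelihood test, adjusted over all 12266 genes tested. At an adjusted p under 0.05, 12 were higher after washout, or 24.5% of those tested, where 27.0% of all genes were higher. 15 were lower, or 30.6%, where 25.4% of all genes were lower. 22 did not pass the test. The 12 include Smarca5-ps and Ino80dos, and the 15 include 5 of the ARID genes outside SWI/SNF. The split was 9 higher and 19 lower with total-count scaling, where 18.9% of all genes were higher and 34.6% lower. It was 17 higher and 8 lower with the GC and length correction, where the shares of all genes were 34.3% and 23.4%, and 9 higher and 8 lower without GSI replicate 2, where they were 19.2% and 17.4%. With the further requirement of a log2 fold change beyond 1 in size, 3 were higher (6.12%, against 7.74% of all genes) and 2 were lower (4.08%, against 11.7%). The shares at the adjusted p alone lie near those of all genes and are no result about remodelers as a class, and the last share, of 2 genes, is below that of all genes and was not tested. The median log2 fold change of the 49 was 0.02, with quartiles of -0.44 and 0.28, beside -0.01 and quartiles of -0.55 and 0.47 over all genes. Subunits are well expressed genes, with a median log2 CPM of 6.55 against 5.09. Scaling by the total count alone moved the median of all genes to -0.21, and the changes below are relative to the TMM scale.

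**Figure D1:**
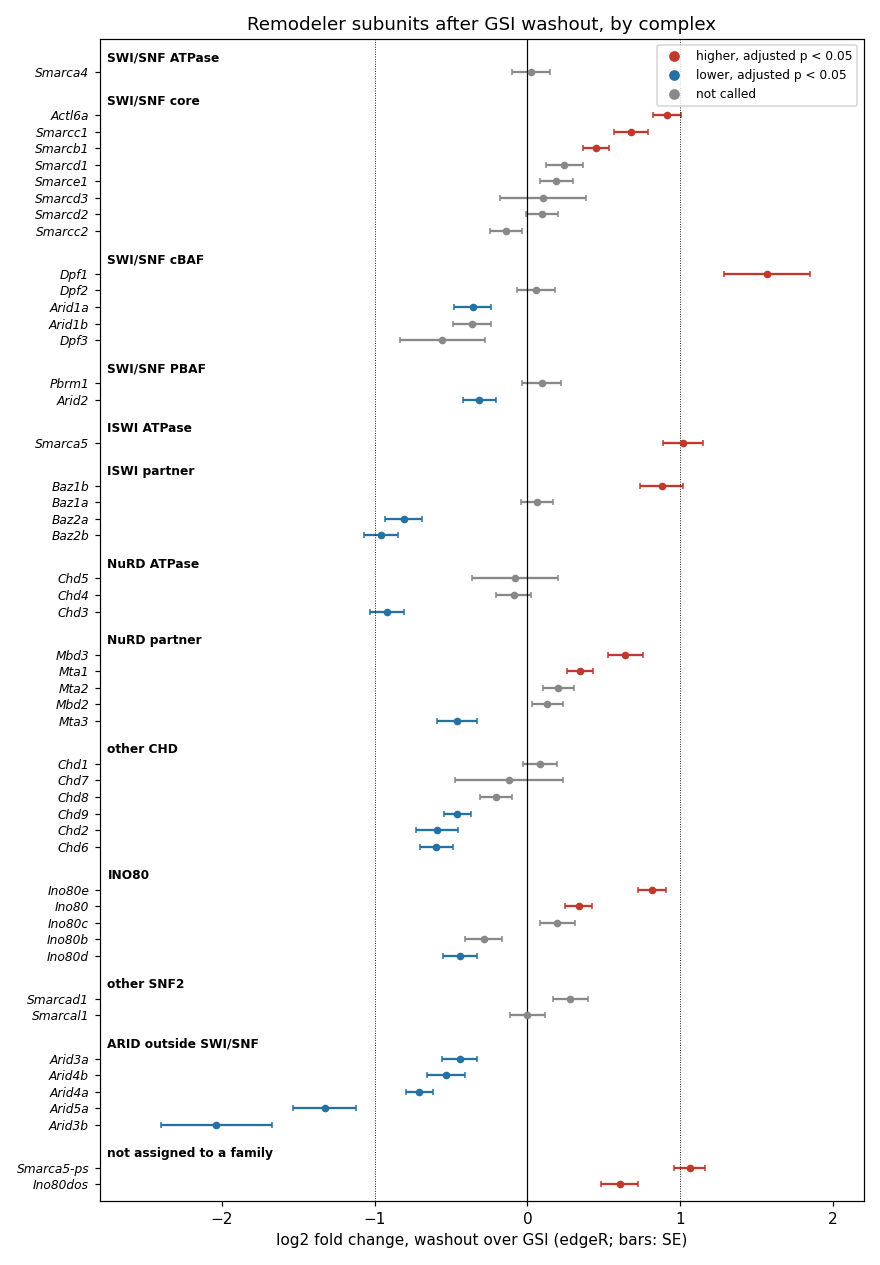
Log2 fold change of washout over GSI for the 49 tested genes (horizontal axis; points are edgeR estimates, bars are standard errors), grouped by complex. Red points were higher and blue points lower at an adjusted p under 0.05, gray points were not called, and dotted lines mark a log2 fold change of 1 in either direction. Smarca4 and Chd4 lie near 0, while Dpf1 at 1.57 and Arid3b at -2.04 are the outermost points.

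Within SWI/SNF, the catalytic subunit did not pass the test while part of the core did. Smarca4 (BRG1), the ATPase, was measured at 614 and 688 CPM with GSI and at 631 and 691 CPM after washout. The values of both groups overlapped, with a log2 fold change of 0.02 (SE 0.122, adjusted p = 0.893). When the fold changes were corrected for GC and exon length, however, Smarca4 was called higher, at 0.44 (adjusted p = 0.00614). Its alternative, Smarca2 (BRM), had 17 and 4 counts with GSI and 6 and 4 after washout, and was too low to test. Actl6b, the neuronal actin-like subunit, had 0 counts in every library, which allows up to between 0.0881 and 0.223 CPM.

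Of the 8 core subunits tested, 3 rose, none fell and 5 did not pass, where 27.0% of all genes rose and 25.4% fell. Actl6a (BAF53A), an actin-like subunit that also belongs to INO80 and TIP60, was at 127 and 131 CPM with GSI and at 245 and 241 CPM after washout. The washout libraries stood well above both GSI libraries, and the log2 fold change was 0.91 (SE 0.091, adjusted p = 0.000678). Actl6a shares exon sequence with Mrpl47 on the other strand, and the strand setting of the counting is not given in the sources used here, so its value is uncertain to that extent. Smarcc1 (BAF155), a scaffold of the complex, was at 202 and 226 CPM with GSI and at 358 and 326 CPM after washout. Both washout values were higher, with a log2 fold change of 0.68 (SE 0.111, adjusted p = 0.00358). Smarcb1 (SNF5), the subunit that contacts the nucleosome face opposite the ATPase, measured 92.3 and 89.4 CPM with GSI and 124 CPM in both washout libraries, and rose by a log2 fold change of 0.45 (SE 0.087, adjusted p = 0.00647). This call was lost without GSI replicate 2 (0.44, adjusted p = 0.0515) and with total-count scaling. The other core subunits tested, Smarcc2, Smarcd1 to Smarcd3 and Smarce1, had log2 fold changes between -0.14 and 0.24. Under the GC and length correction Smarcd1 and Smarcd2 were called higher as well.

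Of the 7 subunits that set the type of SWI/SNF complex, Dpf1 rose and Arid1a and Arid2 were called lower near the threshold. Dpf1 (BAF45B), a PHD-finger subunit best known from neural cells, had 131 and 36 counts with GSI and 369 and 122 after washout. These correspond to 4.09 and 2.47 CPM and to 10.8 and 9.08 CPM, and both washout libraries were above both GSI libraries. The log2 fold change was 1.57 (SE 0.280, adjusted p = 0.00486), at a low level of 0.930 CPM per kilobase of exon with GSI. Dpf2, the widely expressed member, was at 14.2 CPM per kilobase with GSI and 14.7 after washout. Dpf3 fell short of the test, with a log2 fold change of -0.56 (adjusted p = 0.140).

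Arid1a (BAF250A), the signature subunit of canonical BAF, was at 156 and 188 CPM with GSI and at 129 and 140 CPM after washout. Its log2 fold change of -0.36 (SE 0.121) was just inside the threshold, with an adjusted p of 0.0471, and its paralog Arid1b, at -0.36 as well, was just outside with 0.0512. With DESeq2 in place of edgeR, Arid1a was not called either (-0.34, adjusted p = 0.0553). With RLE size factors in edgeR, Arid1b was called lower and Arid1a was not (adjusted p = 0.05003). Arid1b was also called lower with total-count scaling, without a filter on low counts, with at least 10 counts in every library and with the replicate block. The call on Arid1a was lost without GSI replicate 2 (-0.21, adjusted p = 0.320) and without washout replicate 1 (-0.29, adjusted p = 0.131), and its direction turned under the GC and length correction (0.13). Arid2 (BAF200), the signature subunit of PBAF, went from 412 and 453 CPM to 354 and 340 CPM, with a log2 fold change of -0.32 (SE 0.106, adjusted p = 0.0465). It was lost whichever library was left out, with values between -0.39 and -0.23. The call on Arid2 was also lost with DESeq2 (adjusted p = 0.0513) and, in edgeR, without a filter on low counts (adjusted p = 0.0715). Pbrm1 (BAF180), the bromodomain subunit of PBAF, was at 274 and 288 CPM with GSI and at 330 and 269 CPM after washout, and the groups overlapped.

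**Figure D2:**
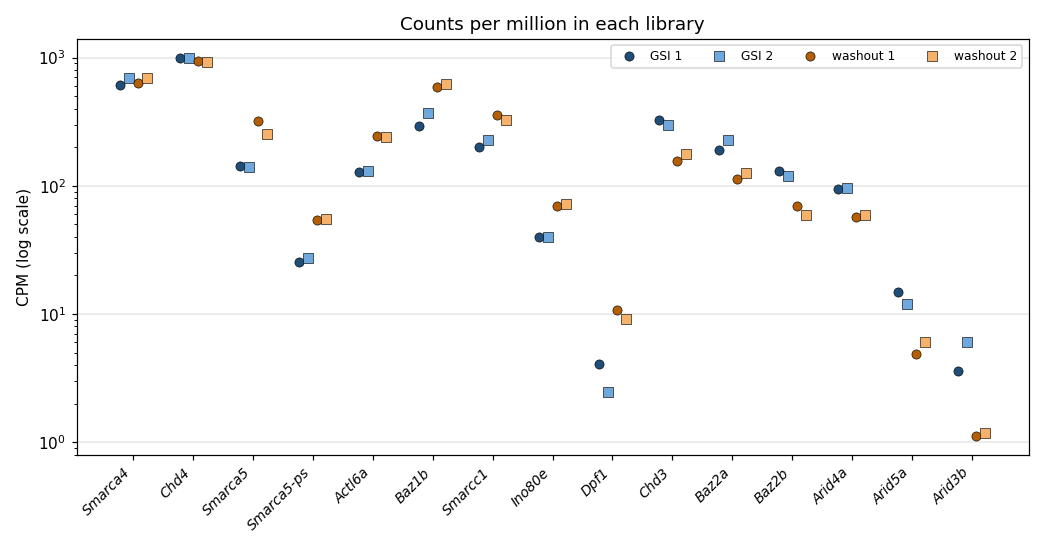
CPM of 15 genes in each library (log vertical axis), with GSI libraries in blue and washout libraries in orange, and circles for replicate 1 and squares for replicate 2. Smarca4 overlaps between the groups, Smarca5, Actl6a, Baz1b, Smarcc1, Ino80e and Dpf1 are higher in both washout libraries, and Chd3, Baz2a, Baz2b, Arid4a, Arid5a and Arid3b are lower in both.

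The ISWI genes split between a rise of the ATPase with 1 partner and a fall of the Baz2 partners. Smarca5 (SNF2H), the ISWI ATPase of dividing cells, had 4544 and 2045 counts with GSI and 10803 and 3410 after washout. On the CPM scale these are 142 and 140 with GSI and 317 and 254 after washout. Both washout libraries were higher, and the log2 fold change was 1.02 (SE 0.130, adjusted p = 0.00143), a 2.03-fold higher level. This value lay just above the threshold of 1. It was 0.82 with total-count scaling, 0.98 with at least 10 counts in every library and 0.85 without washout replicate 1. The other ISWI ATPase, Smarca1 (SNF2L), had 0 counts in every library. Baz1b (WSTF), which joins Smarca5 in the WICH complex at replication sites, was at 293 and 367 CPM with GSI and at 588 and 626 CPM after washout. It rose by a log2 fold change of 0.88 (SE 0.140, adjusted p = 0.00317). Baz1a (ACF1), the partner in the ACF and CHRAC complexes, overlapped between the groups with 148 and 169 CPM against 167 and 163 CPM, and its log2 fold change was 0.06 (SE 0.104).

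Baz2a (TIP5), which joins Smarca5 in the NoRC complex that silences ribosomal DNA, was at 191 and 227 CPM with GSI and at 113 and 125 CPM after washout. It fell by 0.81 on the log2 scale (SE 0.122, adjusted p = 0.00252), with both washout libraries below both GSI libraries. Baz2b, its less studied relative, was at 131 and 120 CPM with GSI and at 69.1 and 59.5 CPM after washout, and fell by 0.96 (SE 0.112, adjusted p = 0.00107). Baz2a overlaps exons of Ptges3 on the same strand and Baz2b exons of Gm13620 on the other. The overlap mode of the counting is not given, so reads there may have been dropped or counted on another gene.

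The processed copy Smarca5-ps moved as its parent did. It lies on NCBIM37 chr4:145054107-145057323, plus strand, has no intron, and is annotated as a processed transcript. Smarca5 lies on chr8:83222406-83263396, minus strand. The copy aligned with the annotated Smarca5 transcript over 3257 positions at 96.7% identity, with 60 mismatches. The stretch of 75 bases near the middle of the alignment, inside a coding exon, is shown because it bears on whether reads of both can be told apart, and capitals mark the 2 positions that differ.
Smarca5, chr8:83241435-83241509, minus strand: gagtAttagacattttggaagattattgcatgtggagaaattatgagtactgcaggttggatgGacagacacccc
Smarca5-ps, chr4:145055702-145055776, plus strand: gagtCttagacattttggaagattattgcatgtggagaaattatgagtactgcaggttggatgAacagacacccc

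Of the 3183 windows of 75 aligned bases, 749 (23.5%) were identical in both. The aligner reported 1 alignment per read, so reads from such windows could be placed on either gene. Smarca5-ps had 808 and 396 counts with GSI and 1829 and 746 after washout, which is 15.1% and 16.2% of the counts of both genes with GSI and 14.5% and 18.0% after washout. The shares overlapped between the groups. Its log2 fold change was 1.06 (SE 0.103, adjusted p = 0.000621). How many reads of 1 gene were counted on the other was not tested. This value can therefore not be taken as independent of that of Smarca5. With the counts of both summed, an alternative added after their counts were seen, the log2 fold change was 1.02 (adjusted p = 0.00107).

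In NuRD, the leading ATPase did not pass the test and a weaker paralog fell. Chd4 (Mi-2β), the main NuRD ATPase of thymocytes, had the highest level per kilobase of all ATPases, at 123 and 124 CPM per kilobase of exon with GSI and 116 and 115 after washout. Both washout values were slightly lower, but the log2 fold change of -0.09 (SE 0.114) did not pass the test (adjusted p = 0.537), and under the GC and length correction it turned to 0.30 and was called (adjusted p = 0.0308). Chd3 (Mi-2α) was at 326 and 300 CPM with GSI and at 155 and 176 CPM after washout, which is 38.5 and 35.4 against 18.4 and 20.8 CPM per kilobase. It fell by 0.92 on the log2 scale (SE 0.110, adjusted p = 0.00116), with no overlap between the groups. Chd5, the ATPase known from brain and testis, was low in all libraries, at 2.16 and 1.92 CPM with GSI and 1.94 and 1.93 CPM after washout (log2 fold change -0.08, SE 0.282, adjusted p = 0.824).

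Of the 5 NuRD partners, 2 rose, 1 fell and 2 did not pass, where 27.0% of all genes rose and 25.4% fell. So few genes cannot be set against these shares. Mbd3, a core subunit that binds methylated DNA only weakly, was at 54.5 and 65.8 CPM with GSI and at 92.5 and 94.7 CPM after washout, and rose by a log2 fold change of 0.64 (SE 0.116, adjusted p = 0.00513). Mbd2, the member that binds methylated DNA, overlapped between the groups. Mta1 was at 72.3 and 72.1 CPM with GSI and at 90.8 and 92.5 CPM after washout, and rose (log2 fold change 0.34, SE 0.087, adjusted p = 0.0173). That call was lost without GSI replicate 1 (0.34, adjusted p = 0.111), without GSI replicate 2 (0.35, adjusted p = 0.0977) and with total-count scaling. Mta2, the most abundant of the MTA scaffold genes at 93.3 CPM per kilobase with GSI, did not pass the test at 0.20 (adjusted p = 0.131). Under the GC and length correction Mta2 was called higher. Mta3 was at 71.4 and 81.4 CPM with GSI and at 49.9 and 61.4 CPM after washout, with a log2 fold change of -0.46 (SE 0.133, adjusted p = 0.0280). Without GSI replicate 2 it stood at -0.35 (adjusted p = 0.146) and without washout replicate 1 at -0.31 (adjusted p = 0.0927).

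Among all 9 CHD ATPases, including those of NuRD, 4 fell, none rose and 5 did not pass, where 25.4% of all genes fell and 27.0% rose. With so few genes this count was not tested against all genes. Of the 6 outside NuRD, the subfamily of Chd6 to Chd9 is known from developmental gene control and Chd1 and Chd2 from transcribed genes. Chd2 was at 159 and 189 CPM with GSI and at 104 and 126 CPM after washout. It fell by 0.59 on the log2 scale (SE 0.137, adjusted p = 0.0128), while Chd1, its close relative, was at 236 and 234 CPM with GSI and at 268 and 229 CPM after washout, so that its groups overlapped (log2 fold change 0.08, SE 0.112, adjusted p = 0.578). Chd6 was at 151 and 170 CPM with GSI and at 101 and 111 CPM after washout, and fell by 0.60 (SE 0.107, adjusted p = 0.00488). Chd9 was at 108 and 112 CPM with GSI and at 80.8 and 78.6 CPM after washout, and fell by 0.46 (SE 0.088, adjusted p = 0.00632). Without GSI replicate 2, Chd2 (-0.45, adjusted p = 0.0682) and Chd9 (-0.42, adjusted p = 0.0536) missed the threshold.

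Chd8, which has been linked to β-catenin and to autism, was at 206 and 230 CPM with GSI and at 186 and 192 CPM after washout, and its log2 fold change of -0.21 (SE 0.102) did not pass (adjusted p = 0.135). Chd7, the gene of CHARGE syndrome, was barely expressed, with between 15 and 35 counts per library, and did not pass the test (log2 fold change -0.12, SE 0.355, adjusted p = 0.797). Under the GC and length correction Chd2 (-0.36, adjusted p = 0.0503) and Chd6 (-0.24, adjusted p = 0.0967) were no longer called, while Chd3 (-0.44, adjusted p = 0.00840) and Chd9 (-0.25, adjusted p = 0.0272) were.

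**Figure D3:**
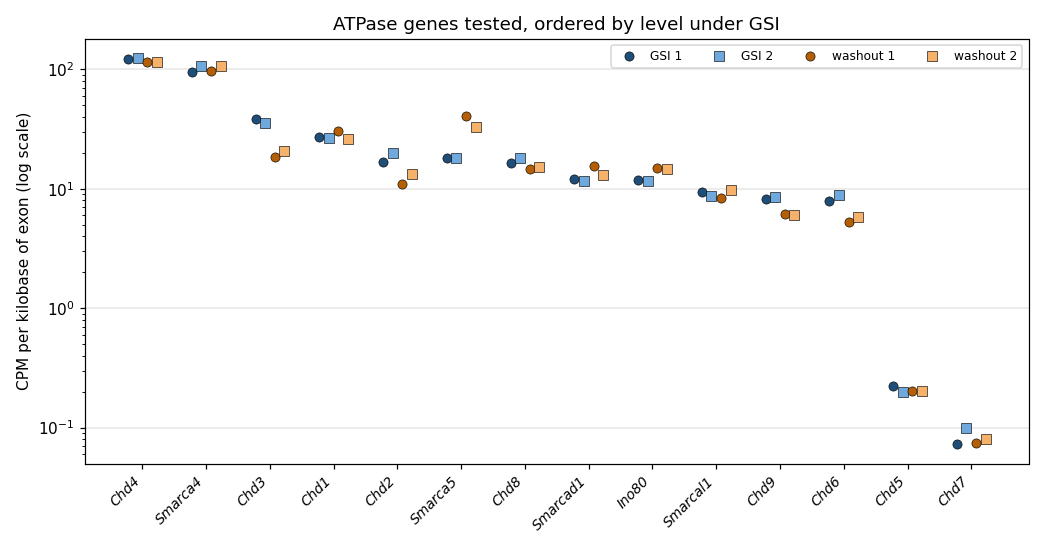
CPM per kilobase of exon of the 14 tested ATPase genes in each library (log vertical axis), ordered by their mean with GSI; colors and symbols stand for group and replicate. Chd4 and Smarca4 lead in every library, Smarca5 moves above Chd1 and Chd3 after washout, and Chd5 and Chd7 lie under 1 throughout.

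Ordered by level per kilobase, Chd4 (mean 123 CPM per kilobase with GSI) stood above Smarca4 (101), and Chd3 (37.0) and Chd1 (26.9) followed. Chd2, Smarca5 and Chd8 came next at 18.2, 18.1 and 17.3, and their libraries overlapped. Smarcad1 and Ino80 followed at 11.8 each, also overlapping. After washout the order behind Chd4 (116) and Smarca4 (102) was Smarca5 (36.7), Chd1 (28.5) and Chd3 (19.6). Smarcad1, an SNF2 protein of replicating heterochromatin, and Smarcal1, an annealing helicase that repairs stalled forks, did not pass the test. Smarcad1 was at 78.3 and 76.2 CPM with GSI and at 102 and 85.2 CPM after washout, with a log2 fold change of 0.28 (SE 0.114, adjusted p = 0.0819). It was called higher in 4 alternatives: without washout replicate 2 (0.42, adjusted p = 0.0166), without a filter on low counts (0.32, adjusted p = 0.0259), with the replicate block (0.28, adjusted p = 0.00476) and with the GC and length correction (0.29, adjusted p = 0.0170). Smarcal1 overlapped between the groups, at 54.0 and 49.5 CPM against 48.0 and 55.9 CPM, with a log2 fold change of -0.00 (SE 0.115, adjusted p = 0.997).

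Of the 5 INO80 subunits, 2 rose, 1 fell and 2 did not pass, where 27.0% of all genes rose and 25.4% fell. Here too the genes are too few to compare with these shares. Ino80e was at 40.2 and 40.0 CPM with GSI and at 69.2 and 72.0 CPM after washout, and rose by a log2 fold change of 0.82 (SE 0.092, adjusted p = 0.000952). Its exons overlap those of Doc2a and Hirip3 on the other strand. The ATPase Ino80 itself rose less, from 81.0 and 79.0 CPM to 102 and 99.8 CPM (log2 fold change 0.34, SE 0.087, adjusted p = 0.0192). The call was lost without GSI replicate 1 (0.35, adjusted p = 0.103), GSI replicate 2 (0.33, adjusted p = 0.116) or washout replicate 1 (0.32, adjusted p = 0.0518), and with total-count scaling (0.14).

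Ino80d was at 87.9 and 104 CPM with GSI and at 71.9 and 69.2 CPM after washout. Its log2 fold change was -0.44 (SE 0.112, adjusted p = 0.0177), and it became -0.30 (adjusted p = 0.137) without GSI replicate 2. Ino80dos moved the other way, from 14.9 and 14.3 CPM to 22.4 and 22.0 CPM, and rose by a log2 fold change of 0.60 (SE 0.124, adjusted p = 0.00825). The kit keeps the strand of the RNA, but whether the counting used it is not given, and without it reads of a gene and its opposite-strand transcript cannot be told apart. Ino80b and Ino80c had log2 fold changes of -0.29 and 0.20.

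The ARID genes outside SWI/SNF all fell where they could be tested: 5 of the 7 had enough counts, and these 5 were lower after washout, where 25.4% of all genes were. The difference from that share was not tested. Arid3b, which binds AT-rich DNA, had 114 and 88 counts with GSI and 38 and 16 after washout. These are 3.56 and 6.03 CPM against 1.12 and 1.19 CPM, and the log2 fold change was -2.04 (SE 0.364, adjusted p = 0.00482). Arid5a, known to bind and stabilize inflammatory mRNAs, was at 14.9 and 12.1 CPM with GSI and at 4.91 and 6.03 CPM after washout, a log2 fold change of -1.33 (SE 0.205, adjusted p = 0.00282). Both were lower in each washout library than in each GSI library.

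Arid4a and Arid4b are partners of the Sin3 deacetylase complex. Arid4a was at 93.9 and 96.0 CPM with GSI and at 57.0 and 59.2 CPM after washout, and fell by 0.71 on the log2 scale (SE 0.089, adjusted p = 0.00135). Arid4b fell by 0.53 (SE 0.125, adjusted p = 0.0134), which became 0.50 (adjusted p = 0.0620) without GSI replicate 1. Arid3a (Bright), known as an activator of immunoglobulin genes, fell by 0.44 (SE 0.115, adjusted p = 0.0190) from 55.6 and 63.1 CPM to 41.2 and 46.2 CPM. It was not called without GSI replicate 2 (-0.34, adjusted p = 0.134), without washout replicate 1 (-0.35, adjusted p = 0.0641) or under the GC and length correction (-0.14, adjusted p = 0.213). Arid3c had 1, 1, 2 and 0 counts and Arid5b 1, 0, 0 and 1 in the GSI and washout libraries in turn, and neither was tested.

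Because many subunits have a paralog that takes the same place in the complex, ratios of CPM per kilobase between paralogs were computed within each library. They are given as a description and were not tested. Smarcc1 was below Smarcc2 with GSI, at a ratio of 0.686 and 0.727, and above it after washout, at 1.39 and 1.12. The ratio of Chd4 to Chd3 was 3.19 and 3.50 with GSI and 6.33 and 5.56 after washout. That of Baz1a to Baz1b went from 0.518 and 0.472 to 0.292 and 0.268, so that Baz1b outnumbered Baz1a more after washout.

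Mta2 to Mta3 went from 8.91 and 7.73 to 14.6 and 11.9, and Mbd3 to Mbd2 from 1.15 and 1.503 to 1.75 and 2.01. Chd1 to Chd2 stood at 1.63 and 1.35 with GSI and at 2.80 and 1.98 after washout. In all these pairs the groups did not overlap. By contrast, Arid1a to Arid1b (1.57 and 2.09 against 1.59 and 2.11), Baz2a to Baz2b (3.03 and 3.93 against 3.38 and 4.37) and Arid4a to Arid4b overlapped between the groups. Of the 19 pairs with both genes tested, 9 had a higher ratio after washout without overlap, 3 a lower one, and 7 overlapped. Higher or lower depends here on which gene of a pair was put first. Some genes, such as Chd8 and Mta2, are in more than 1 pair, so the pairs are not independent. With 2 libraries per group, ratios can separate without a real shift, and no such share was computed over other gene pairs.

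**Figure D4:**
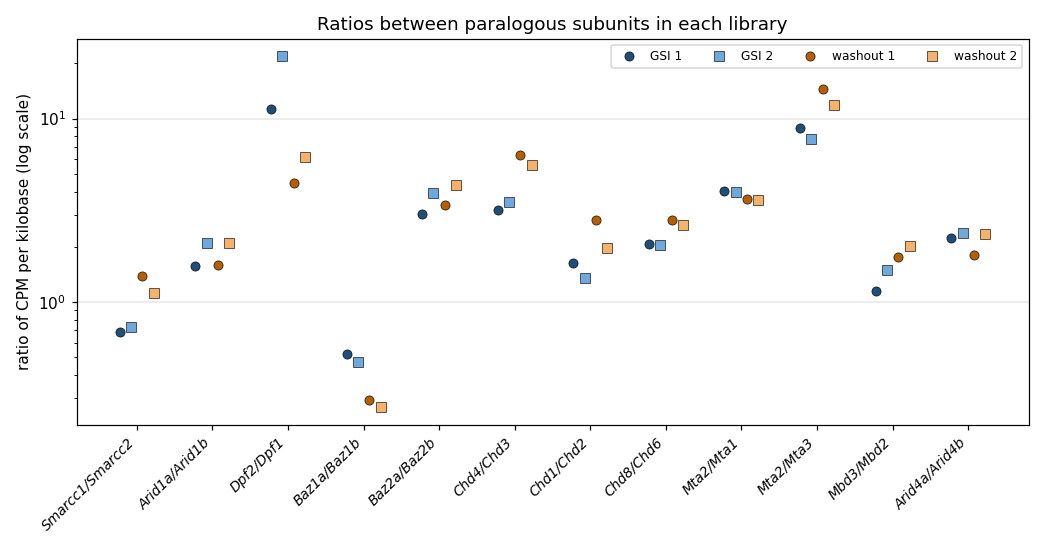
Ratio of CPM per kilobase of exon between paralogous subunits in each library (log vertical axis); colors and symbols stand for group and replicate. Smarcc1/Smarcc2 crosses from under 1 to over 1, Baz1a/Baz1b falls, Chd4/Chd3 and Mta2/Mta3 rise, and Arid1a/Arid1b and Baz2a/Baz2b overlap between the groups.

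Direction went with the length of the gene's exons. Exon length joins all annotated transcripts of a gene, from another annotation than that of the counts, so the lengths that were counted may differ. The same holds for the levels per kilobase. Subunits that rose had a median exon length of 4648 bases (11 with an annotated length), those not called 6488 bases (22) and those that fell 9238 bases (15), where all tested genes had a median of 3567. Across the 48 subunits with a length, the log2 fold change had a Spearman correlation of -0.54 with exon length, against -0.12 across 10962 genes. These are genes of the same 4 libraries and not independent replicates. No subunit under 5562 bases was called lower and none over 8133 bases was called higher. Among those not called, the shorter Dpf3 (-0.56), Ino80b (-0.29) and Smarcc2 (-0.14) had negative values. The longer Pbrm1 (0.09) and Chd1 (0.08) had positive ones. Of the subunits over 10000 bases, the median log2 fold change was -0.44 (9 genes), where the 462 such genes in all had a median of -0.30. With GC content the correlation was 0.01 across the subunits. When the trends with GC and length were fitted over all genes and removed, 19 of the 27 calls remained in the same direction. The calls lost were those on Arid1a, Arid2, Arid3a, Chd2, Chd6, Ino80d and Mta3, together with Ino80dos, which has no annotated length. Gained were 6 calls, all higher: Chd4, Mta2, Smarca4, Smarcad1, Smarcd1 and Smarcd2. The alignment allowed introns of up to 3000 bases, and 256 of the 1031 introns of the subunits' longest transcripts are longer. What part RNA quality or the alignment has in this relation was not tested. Besides the overlaps named above, Arid3b, Arid4b, Chd3, Chd5, Chd8, Ino80d, Smarcd1 and Smarcd3 share exon sequence with a gene on the other strand and Baz1a with one on its own strand, which leaves their counts uncertain to that extent.

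**Figure D5:**
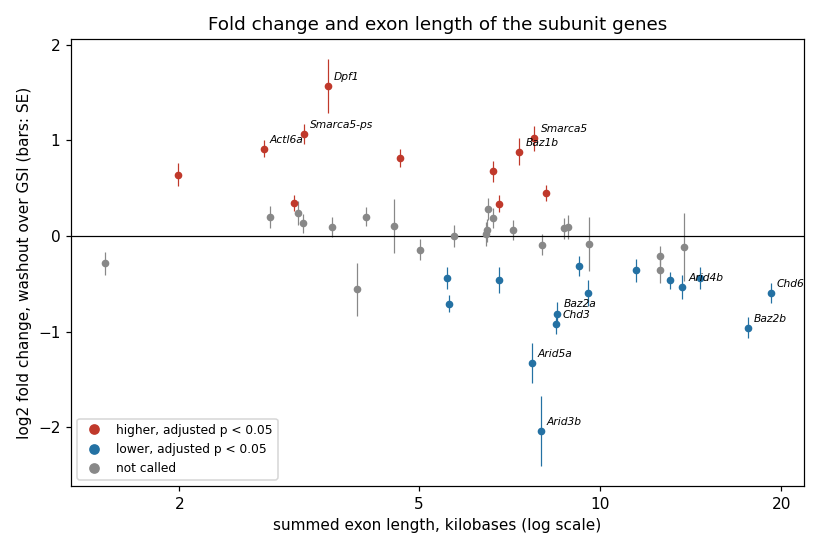
Log2 fold change of washout over GSI (vertical axis; bars are standard errors) against summed exon length in kilobases (log horizontal axis) for the 48 tested genes with an annotated length. Red points (higher) lie between 1987 and 8133 bases and blue points (lower) between 5562 and 19192 bases.

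Other subunits of the same complexes and other SNF2 genes, which the symbol rule does not take, were counted from a list of 50. Of these 48 were in the table and 47 were tested. 21 were higher after washout (44.7%, against 27.0% of all genes) and 5 were lower (10.6%, against 25.4%). With total-count scaling the split was 15 higher and 11 lower, where 18.9% of all genes were higher and 34.6% lower. Without GSI replicate 2 it was 16 higher and 2 lower, where these shares were 19.2% and 17.4%. The median log2 fold change was 0.19. Past both thresholds were 10 higher genes (21.3%, against 7.74% of all genes) and 1 lower gene (2.13%, against 11.7%). Their adjusted p lay between 0.000374 and 0.00263. The list was made with earlier results of these data known, and its differences from all genes were not tested. Hells (LSH), a SNF2 protein needed for DNA methylation and known from proliferating lymphocytes, was at 76.0 and 96.6 CPM with GSI and at 334 and 249 CPM after washout, a log2 fold change of 1.76 (SE 0.184, adjusted p = 0.000777). The AAA+ ATPases Ruvbl1 and Ruvbl2, which INO80, SRCAP and TIP60 share, rose by log2 fold changes of 1.37 and 1.35. Pole3, a histone-fold subunit of CHRAC and of DNA polymerase ε, rose by 1.28 and Chrac1 by 0.34.

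In NuRD, 5 of the 7 listed partners rose and none fell, where 27.0% of all genes rose and 25.4% fell. This count was not tested. Of the 8 NuRD genes taken by symbol, 2 rose, 2 fell and 4 did not pass. The listed partners that rose include the histone chaperone Rbbp7 (1.01), Cdk2ap1 (1.20), Hdac2 (0.73) and Rbbp4 (0.51). Hdac1 had a log2 fold change of -0.03 (adjusted p = 0.798). The listed SWI/SNF partners were mixed: Bcl7a (1.17), Phf10 (0.74), Brd7 (0.69) and Ss18 (0.54) rose, while Gltscr1 (-1.61), Bcl11b (-0.72) and Gltscr1l (-0.39) fell. In ISWI, the NURF subunit Bptf (-0.34) and Rsf1 (-0.32) fell. Of the other genes on the list, Uchl5 (1.17), Rad54l (1.20) and Chd1l (1.13) also passed both thresholds. S phase genes moved in the same direction as these rises, and their part was not tested.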

How the data were processed

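RNA-Seq was analyzed in 2 GSI and 2 washout libraries of Beko cells, grouped by the treatment labels. The authors prepared stranded libraries from ribosomal-RNA-depleted total RNA, trimmed reads with TrimGalore 0.6.5, aligned them to mm9 with HISAT2 2.2.1 (1 alignment per read, introns up to 3000 bases) and used summarizeOverlaps with an iGenomes annotation to count them. The strand setting and overlap mode are not given in the sources used here. The deposited values are raw counts, and all 4 columns were used. The labels also list DESeq2 1.24.0.

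Washout was set against GSI in edgeR 4.0.16 under R 4.3.3 (filterByExpr, TMM, estimateDisp, quasi-likelihood test, no covariates) and adjusted by the Benjamini-Hochberg method over all genes tested. DESeq2 1.42.0 served as an alternative. The biological coefficient of variation was 0.121. Replicates differed by more than sampling noise (their chi-square divided by its degrees of freedom was 17.2 with GSI and 27.7 after washout). 3 counts correspond to between 0.0881 and 0.223 CPM, a limit that covers counting error only. Positions, exon lengths and GC content came from GENCODE vM1 on NCBIM37, in which 53 of the 54 genes matched, and promoters came from RefSeq (GRCm38.p6). The scripts were tested on simulated counts.

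Among the 54 genes, values by library and full statistics are given for every ATPase tested, every gene past both thresholds, the largest rise and fall called in each role group, and paralogs called in opposite directions. On the list of other remodeler genes, those past both thresholds and the largest rise and fall called in each group are named, mostly by their log2 fold change alone. Others on that list were picked for mention after their values were seen. The genes and lists were chosen with earlier results of these data known. Alternatives were other size factors, total-count scaling, other filters, thinning to the smallest library, a replicate block, a GC and length correction, and leaving out each library. The sum of Smarca5 and Smarca5-ps was added after seeing the data. Ratios, promoters, the length relation and the choice of printed sequences are descriptions, also made after the values were seen.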

Additional observations from a re-analysis of the deposited data

How the results depend on the processing

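The calls kept in the same direction in every alternative in which they were tested were 9 higher (Actl6a, Baz1b, Dpf1, Ino80dos, Ino80e, Mbd3, Smarca5, Smarca5-ps and Smarcc1) and 6 lower (Arid3b, Arid4a, Arid5a, Baz2a, Baz2b and Chd3), before the sum of Smarca5 and its copy. Of the 27 calls, DESeq2 kept 25, total-count scaling 24, the GC and length correction 19, and the fits without GSI replicate 1, GSI replicate 2, washout replicate 1 and washout replicate 2 kept 23, 17, 22 and 26. In these last fits the lone library is assumed to vary like those of the other group. Of all genes, 24.4% were higher and 19.9% lower with DESeq2, and 18.9% and 34.6% with total-count scaling. With the GC and length correction these shares were 34.3% and 23.4%. In every fit without a library they lay below the 27.0% and 25.4% of the fit with every library. How many calls on other genes were kept was not computed. The number of lower subunits fell to 8 with the GC and length correction and lay between 8 and 14 when a library was left out. Past both thresholds, total-count scaling gave 1 higher and 5 lower subunits, and the GC and length correction gave 1 lower. On the list of other remodeler genes, 11 were lower with total-count scaling, 2 with the GC and length correction and 2 to 4 without a library. The median of the subunits was -0.177 with total-count scaling, 0.0589 without a filter, -0.016 with at least 10 counts in every library, 0.1656 with the GC and length correction, and between -0.065 and 0.0883 without a library.

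The GC and length correction turned the direction of Arid1a (0.1339), Chd4 (0.3028), Chd5 (0.4993), Chd7 (0.3704), Chd8 (0.0418) and Smarcal1 (0.1653). Total-count scaling turned Chd1 (-0.1191) and Smarca4 (-0.177), and the filter of at least 10 counts turned Smarca4 (-0.016). Smarcal1 was 0.0168 with DESeq2, 0.0015 with RLE factors and 0.035 without a filter. Without a library, Chd1 lay between -0.0328 and 0.2035, Chd5 between -0.1425 and 0.0081, Chd7 between -0.3691 and 0.101, Smarca4 between -0.0639 and 0.1188, and Smarcal1 between -0.0941 and 0.1132. Apart from Arid1a none of these genes was called in the first place, and the causes were not tested.

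With the replicate number as a replicate block, 16 subunits were higher and 19 lower, all 27 calls were kept and 8 were gained. Of all genes, 34.6% were then higher and 34.4% lower, so calls grew over all genes too. Same-numbered libraries deviated together (correlation 0.497), and replicate 1 was the deeper library in both groups. With 2 pairs and no label that ties them, what else they share is not known. Low counts limit the values of Arid3b, Chd5, Chd7, Dpf1, Dpf3 and Smarcd3, and Smarca2, Arid3c and Arid5b could not be tested at this depth.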
